A study of Mus musculus with 2 samples.

Results

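The albumin gene family and a pair of genes known to repress the alpha-fetoprotein gene were described across liver of mouse embryos. The 6 genes were taken by their symbols, Alb, Afp, Afm, Gc, Zhx2 and Zbtb20, under a rule that reads no measured value, and all 6 were found among the 43346 annotated genes of the tables. The series holds 1 group: whole liver of B6NCrl mice at embryonic day 13.5, pooled from males and females, with no genotype change or treatment in the labels. It has 2 biological replicates that carry the same donor entry, and whether they are separate pools of embryos is not stated in the labels. The SD over n = 2 therefore holds only the difference between these 2 samples, which may be technical. Each library started from 10 ng of total RNA, selected to be longer than 200 nt, and spike-in RNAs were added. No other age, tissue or treatment was analysed here, so no condition was tested and no p-value is given. Levels are TPM, the authors' transcript abundance corrected for length and scaled per library, and replicate ratios rest on expected counts, the authors' estimates of reads per gene.

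Alb, Afp, Afm and Gc encode secreted, cysteine-rich plasma carriers that arose from a common ancestor by gene duplication, and hepatocytes are their main source. Serum albumin (Alb) carries fatty acids and many other small molecules, alpha-fetoprotein (Afp) is the abundant fetal relative, afamin (Afm) binds vitamin E and Wnt proteins, and Gc is the vitamin D binding protein, which also binds actin. Afp is silenced in the liver after birth while Alb stays active, and the zinc finger proteins Zhx2 and Zbtb20 are known as repressors in that postnatal switch.

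Alb, Afp and Afm stood next to each other on 1 strand of chromosome 5 (GRCm38), and Gc lay apart from them on the other strand. Alb spanned chr5:90460897-90476602, Afp chr5:90490737-90508907 and Afm chr5:90518932-90553543, all on the plus strand, and Gc spanned chr5:89417522-89457898 on the minus strand. The gap from Alb to Afp was 14.1 kb and that from Afp to Afm 10.0 kb, whereas Gc and Alb were 1003 kb apart. Zhx2 was annotated at chr15:57694665-57839832 and Zbtb20 at chr16:42875881-43642602, both on the plus strand. The file identifiers are ENSMUSG00000029368.9 for Alb, ENSMUSG00000054932.3 for Afp, ENSMUSG00000029369.13 for Afm, ENSMUSG00000035540.8 for Gc, ENSMUSG00000071757.6 for Zhx2 and ENSMUSG00000022708.12 for Zbtb20.

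The start regions of the 4 listed family genes are printed because they share short letter patterns near the start. Each window of 300 bases runs 5′ to 3′ on the gene's strand, from 250 bases before to 50 bases after the RefSeq start (GRCm38.p6). Capitals mark GTTAAT, its reverse complement and GTTAAC, a palindrome that differs from it in the last base.
Alb (chr5:90460620-90460919, plus strand): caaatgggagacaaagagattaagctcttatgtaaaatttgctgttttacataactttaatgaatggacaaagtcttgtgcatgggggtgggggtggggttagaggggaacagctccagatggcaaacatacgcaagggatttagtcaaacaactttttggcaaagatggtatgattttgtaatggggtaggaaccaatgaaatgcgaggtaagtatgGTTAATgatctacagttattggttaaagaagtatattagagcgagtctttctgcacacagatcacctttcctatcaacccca
Afp (chr5:90490464-90490763, plus strand): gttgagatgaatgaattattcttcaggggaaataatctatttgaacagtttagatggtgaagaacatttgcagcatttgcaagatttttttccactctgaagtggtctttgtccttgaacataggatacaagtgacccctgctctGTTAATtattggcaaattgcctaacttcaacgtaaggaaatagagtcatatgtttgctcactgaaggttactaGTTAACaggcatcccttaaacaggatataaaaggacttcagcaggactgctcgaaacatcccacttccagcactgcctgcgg
Afm (chr5:90518699-90518998, plus strand): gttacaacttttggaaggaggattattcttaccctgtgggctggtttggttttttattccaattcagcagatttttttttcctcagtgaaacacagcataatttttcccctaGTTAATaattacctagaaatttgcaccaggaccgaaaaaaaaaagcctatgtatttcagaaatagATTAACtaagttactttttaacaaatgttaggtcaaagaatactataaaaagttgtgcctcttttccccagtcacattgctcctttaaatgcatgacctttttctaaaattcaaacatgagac
Gc (chr5:89457849-89458148, minus strand): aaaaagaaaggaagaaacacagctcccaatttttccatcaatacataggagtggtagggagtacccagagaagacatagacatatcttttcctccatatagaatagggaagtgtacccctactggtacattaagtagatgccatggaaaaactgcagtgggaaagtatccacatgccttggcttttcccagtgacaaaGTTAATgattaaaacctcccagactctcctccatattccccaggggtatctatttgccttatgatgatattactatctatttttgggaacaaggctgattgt

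GTTAAT was found on either strand in 4 of 4 family windows and in 7.10% of the 32851 windows of the RefSeq table. The family windows were poor in G and C, at 33% to 40.3% against a median of 52.7% over all windows, and among the 3734 windows with at most 40.3% GC the share holding GTTAAT was 17.9%. Counted from the RefSeq start, its first base lay 32 bases upstream in Alb, 105 in Afp and 52 in Gc. Afm held it at 138 bases upstream on the gene's strand and at 73 bases upstream on the opposite strand. GTTAAC was in the Afp window alone among the 4, 32 bases upstream, and in 3.05% of all windows and 6.05% of those with low GC. TATAAA was found in Afp, 7 bases upstream of the RefSeq start, and in Afm, 30 bases upstream, against 13.6% of all windows and 40.1% of those with low GC. CCAAT was found in 4 of 4, against 37.4% of all windows and 41.1% of those with low GC. The RefSeq start differed from the GENCODE start by 27 bp in Alb, 23 bp in Afp, 17 bp in Afm and 0 bp in Gc, so these distances shift with the annotation. The Zbtb20 window of the table lies at chr16:43247034-43247333, 371403 bp inside the GENCODE gene, and held GTTAAC and CCAAT but not GTTAAT. The 4 patterns have no overlapping matches in the family windows. They were chosen with these windows in view, and a match describes letters and shows no binding.

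**Figure D1:**
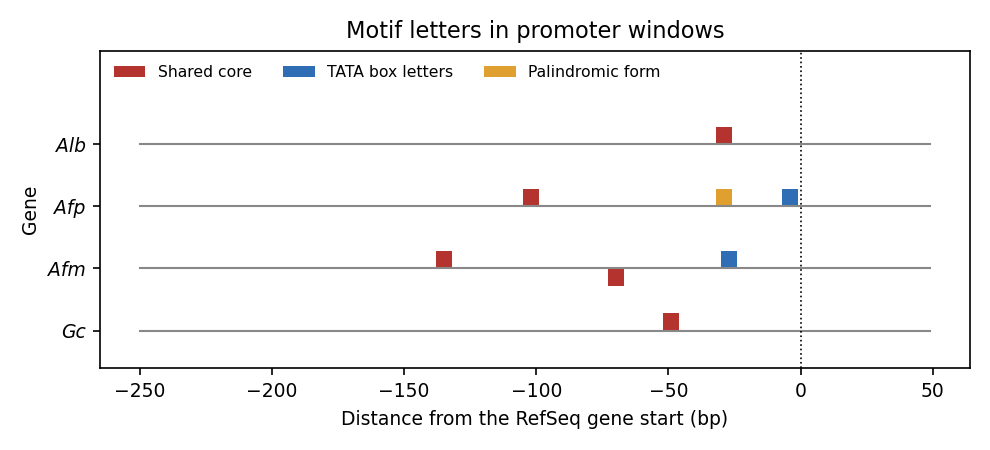
Matches in the 4 family windows, in bp from the RefSeq start (horizontal axis), 1 row per gene, with marks above the line on the gene's strand and below it on the opposite strand. The shared core of the legend is GTTAAT and appears in each of the 4 rows, between 138 and 32 bases upstream, and the palindromic form appears in the Afp row alone.

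The 4 listed family genes ranged from Afp, among the most abundant transcripts of the tissue, to Afm, which was above 70.0% of protein-coding genes. Afp, the fetal carrier, was at 5630 and 6807 TPM in replicates 1 and 2, a mean of 6219 ± 832 (SD, n = 2). It ranked 6 among the 21473 protein-coding genes by mean. Alb followed with 1531 and 1789 TPM, a mean of 1660.2 ± 183, and ranked 28. Gc was at 86.5 and 96.2 TPM, a mean of 91.3 ± 6.84, and ranked 1215. Afm was at 8.57 and 9.89 TPM, a mean of 9.23 ± 0.933, and ranked 6446. Each was higher in replicate 2 on the TPM scale, and the higher library of each gene stayed below the lower library of the next gene up.

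Both Afp repressors were below the listed family genes. Zbtb20 was above 54.1% of protein-coding genes and Zhx2 above 45.5%. Zbtb20, a BTB-domain zinc finger repressor, was at 2.18 and 2.45 TPM, a mean of 2.315 ± 0.191, and ranked 9853. Zhx2, a zinc finger and homeobox repressor, was at 0.57 and 1.05 TPM, a mean of 0.81 ± 0.339, and ranked 11697. The order of the 6 genes was therefore Afp, Alb, Gc, Afm, Zbtb20 and Zhx2, with no overlap between the libraries of any neighbours in the order. The mean fell 3.75-fold from Afp to Alb, 18.2-fold from Alb to Gc, 9.89-fold from Gc to Afm, 3.99-fold from Afm to Zbtb20 and 2.86-fold from Zbtb20 to Zhx2. Of the 6 genes, 5 reached 1 TPM in both libraries, all but Zhx2, against 28.1% of all annotated genes and 52.1% of protein-coding ones.

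**Figure D2:**
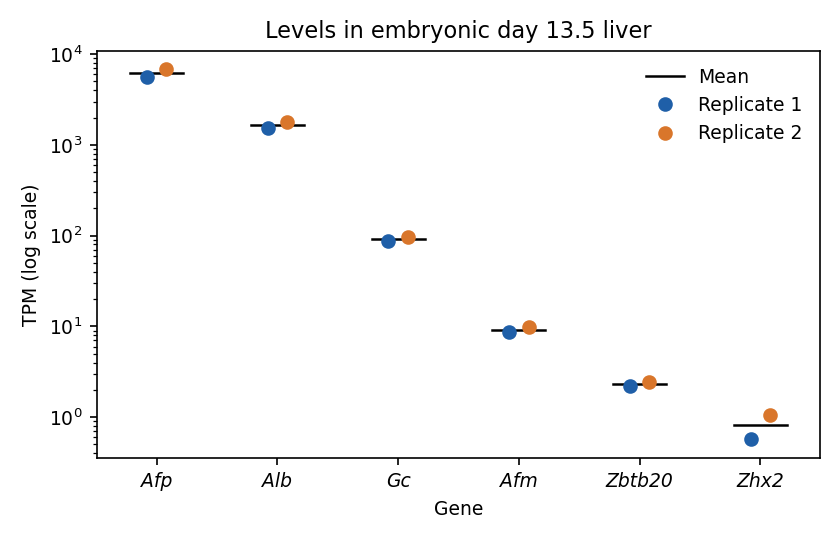
TPM of the 6 genes (log axis), with 1 point per replicate and a line at the mean of both. The genes fall in the order Afp, Alb, Gc, Afm, Zbtb20 and Zhx2, and the replicates stand farthest apart for Zhx2 (0.57 and 1.05 TPM).

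With 1 group, similarity of level was the only likeness that could be named, as the protein-coding genes just above and below in the order of mean TPM over 2 libraries. Afp lay between Ftl1, the ferritin light chain, at 7141 ± 432 TPM, and Gpx1, a glutathione peroxidase, at 6186 ± 15.6 TPM. Alb lay between Eif1, a translation initiation factor, at 1681 ± 36.1 TPM, and the chaperone gene Hspa8 at 1619.9 ± 245 TPM. The libraries of Afp overlapped those of Gpx1, and those of Alb overlapped those of both its neighbours, so these adjacent ranks were not separated. Gc lay between Mrps33, a mitochondrial ribosomal protein gene, and Cox6b2, Afm between Cbx6 and Armc10, Zbtb20 between Nos3 and Carf and Zhx2 between Dlg4 and Zfp677.

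Among the listed family genes, the proportions were alike in both libraries, and family sums and shares cover these genes only. Afp made up 77.9% ± 0.445 of the summed family TPM, Alb 20.8% ± 0.380, Gc 1.15% ± 0.0615 and Afm 0.116% ± 0.00315 (SD, n = 2). Afp exceeded Alb by 3.68-fold in replicate 1 and 3.80-fold in replicate 2, a log2 ratio of 1.90 ± 0.03. Afp exceeded Gc by 65.1-fold and 70.8-fold, and Afm by 657-fold and 688-fold. Alb exceeded Gc by 17.7-fold and 18.6-fold, and Gc exceeded Afm by 10.1-fold and 9.72-fold. The family took 0.739% of the TPM of annotated genes in replicate 1 and 0.899% in replicate 2, a mean of 0.819% ± 0.113. Globin transcripts of the blood-forming cells took 34.6% and 31.2% of the same total, and without the 11 globin genes the family share was 1.13% and 1.31%. In such bulk tissue, fewer cells of a type and less RNA per cell cannot be told apart.

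Levels of the genes next to the listed family genes varied widely. Family membership was taken from the list of symbols and was not examined for these neighbours. On the side of Alb, the nearest protein-coding neighbours within 500 kb were Gm9958 at 1.76 and 2.53 TPM and Ankrd17, an ankyrin repeat gene, at 5.46 and 5.54 TPM, 92.4 and 94.3 kb away, with Cox18 at 20.1 and 21.1 TPM beyond them. On the side of Afm, 5830473C10Rik began 7.56 kb away and was at 0.27 and 0.40 TPM, and Rassf6 was at 2.67 and 3.29 TPM. The highest neighbours were the platelet chemokine genes Pf4, at 493 and 433 TPM, and Ppbp, at 187 and 198 TPM, which lay 219 and 215 kb from Afm. The other chemokine genes of that cluster, Cxcl1, Cxcl2, Cxcl3, Cxcl5 and Cxcl15, were each below 1 TPM in at least 1 library, and Cxcl15 was listed at 0 in both. Mthfd2l was at 3.04 and 2.96 TPM and Epgn at 0.05 and 0.04 TPM. Around Gc, the bicarbonate transporter gene Slc4a4 was at 0.62 and 0.66 TPM, Adamts3 at 0.73 and 0.85 TPM and Npffr2 at 0.02 and 0 TPM.

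The replicates were compared through expected counts scaled by the TMM method, which assumes that most genes are unchanged. Afp had 423671 and 459985 counts, a log2 ratio of replicate 2 over replicate 1 of 0.12 with a 95% counting interval of 0.11 to 0.12. Alb had 112712 and 118296 counts, a log2 ratio of 0.07 (interval 0.06 to 0.08). These are differences of 1.09-fold and 1.05-fold, and the intervals cover counting error only, not the spread between embryos. Gc had 5611 and 5602 counts and a log2 ratio of -0.00 (-0.06 to 0.05), and Afm had 635 and 660 counts and a ratio of 0.06 (-0.10 to 0.21). Zbtb20 had 262 and 249 counts and a ratio of -0.07 (-0.33 to 0.18). Zhx2 had 92 and 91 counts and a ratio of -0.02 (-0.45 to 0.42), so its difference was not detectable at this depth. The interval left out an equal level for 2 of the 6 genes, Afp and Alb, against 38.8% of the 16020 genes tested, those with 10 or more counts on average. Both were higher in replicate 2, as were 20.4% of the genes tested, while 18.4% were lower. It did so for 20 of the 20 genes that averaged 100000 counts or more, since the interval narrows as the count rises. With scaling to total counts, which shifts the median of all genes by 0.07, the interval left it out for 3 of the 6, as Gc was then at 0.06 (0.01 to 0.12). None of the 6 genes differed by more than 2-fold between the replicates, as did 2.82% of all genes. With spike-in scaling all 6 genes were lower in replicate 2, with Afp at -0.52 and Alb at -0.57, beside a shift of -0.64 for the median of all genes. Relative to that shift their ratios are the ones given above.

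**Figure D3:**
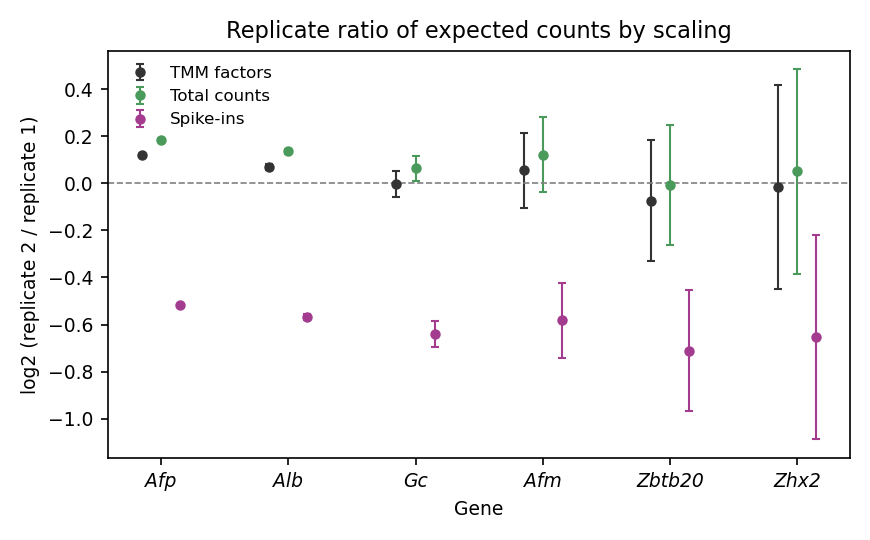
Log2 ratio of replicate 2 over replicate 1 of expected counts for the 6 genes under TMM factors, total counts and spike-ins, with bars for the exact 95% counting interval. Under TMM the intervals of Afp (0.11 to 0.12) and Alb (0.06 to 0.08) leave out 0, and under spike-ins all 6 genes lie below 0.

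Zhx2 was the gene whose TPM and counts diverged. Its TPM was 1.84 times as high in replicate 2 as in replicate 1, although the counts were 92 and 91. The coding transcript Zhx2-201, 4376 nt long with its 2508 nt of coding sequence in 1 exon, was at 0.57 and 0.61 TPM with 92 and 89.33 counts. The short noncoding transcript Zhx2-202, 211 nt long, was listed at 0 in replicate 1 and received 1.67 counts in replicate 2, which amount to 0.44 TPM at that length. Fewer than 2 reads thus made up 41.9% of the Zhx2 TPM of replicate 2, and the effective length of the gene was 4277 nt in replicate 1 and 2544 nt in replicate 2. The TPM ratio and the count ratio, each centred over genes, differed by 1.67-fold for Zhx2. A difference of more than 1.5-fold was found in 0.442% of the 12659 genes that had 50 or more counts in each library, and in none of the other 5 genes described here.

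Zbtb20 was spread over many transcripts, and its leading transcript depended on the measure. The annotation of the tables held 21 transcripts, 12 protein-coding and 9 not, of which 11 had counts in both libraries and 10 were listed at 0 in both. By TPM, the processed transcript Zbtb20-210, 425 nt long, took 17.3% and 14.7% of the gene, a mean of 16.0% ± 1.82, on 4.68 and 3.97 counts. In replicate 2 the coding transcript Zbtb20-203 was above it, at 17.1%. By counts, the coding transcript Zbtb20-204 held 66.1% and 63.2% of the gene, with 173.11 and 157.34 counts, but its TPM was 0.17 in both libraries. Zbtb20-204 is 26901 nt long, of which 2223 nt (8.26%) are coding and 23861 nt follow the coding sequence, all of them in the last exon at chr16:43618323-43642602. Most counts of the gene were thus assigned to its longest transcript, and most of its TPM to transcripts not annotated as coding.

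The 5 longest transcripts had 1 of 2 coding lengths. Those with 2223 nt were Zbtb20-201, Zbtb20-204 and Zbtb20-205, and only Zbtb20-204 had expected counts above 0. Those with 2004 nt were Zbtb20-202, at 0.26 and 0.21 TPM, and Zbtb20-203, at 0.27 and 0.42 TPM. Summed, the shorter coding length was at 0.53 and 0.63 TPM on 54.28 and 58.85 counts, and the longer one at 0.17 and 0.17 TPM on 173.11 and 157.34 counts. This contrast was smaller by the authors' posterior mean TPM. By that measure Zbtb20-201 was at 0.05 and 0.07 and Zbtb20-205 at 0.07 and 0.10. Zbtb20-204 was at 0.17 and 0.17, Zbtb20-202 at 0.23 and 0.24 and Zbtb20-203 at 0.16 and 0.22. The split between Zbtb20-202 and Zbtb20-203 was uncertain, since the authors' posterior SD of their counts was 12.1 to 13.9 reads beside counts of 19.03 to 39.82. All protein-coding transcripts together made up 0.93 and 0.92 TPM, which is 39.9% ± 3.34 of the gene's TPM but 88.4% ± 0.743 of its counts. On coding transcripts alone Zbtb20 exceeded Zhx2 by a log2 ratio of 0.65, against 1.58 ± 0.50 on all transcripts, and the libraries of the 2 genes did not overlap in either case. The authors' posterior mean TPM of Zbtb20 was 3.31 and 3.67, and the deposited TPM of 2.18 and 2.45 lay below the lower bound of the posterior interval, 2.49 and 2.75, in both libraries. That was so for 1.08% of the 12183 genes with at least 1 TPM in both libraries. The deposited TPM of Afp and Alb lay above the upper bound of that interval in both libraries. The bounds were 5564 and 6714 for Afp and 1517 and 1770 for Alb. The share of all genes above their upper bound was not computed. The confidence level of that interval was not stated in the files or labels used here.

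**Figure D4:**
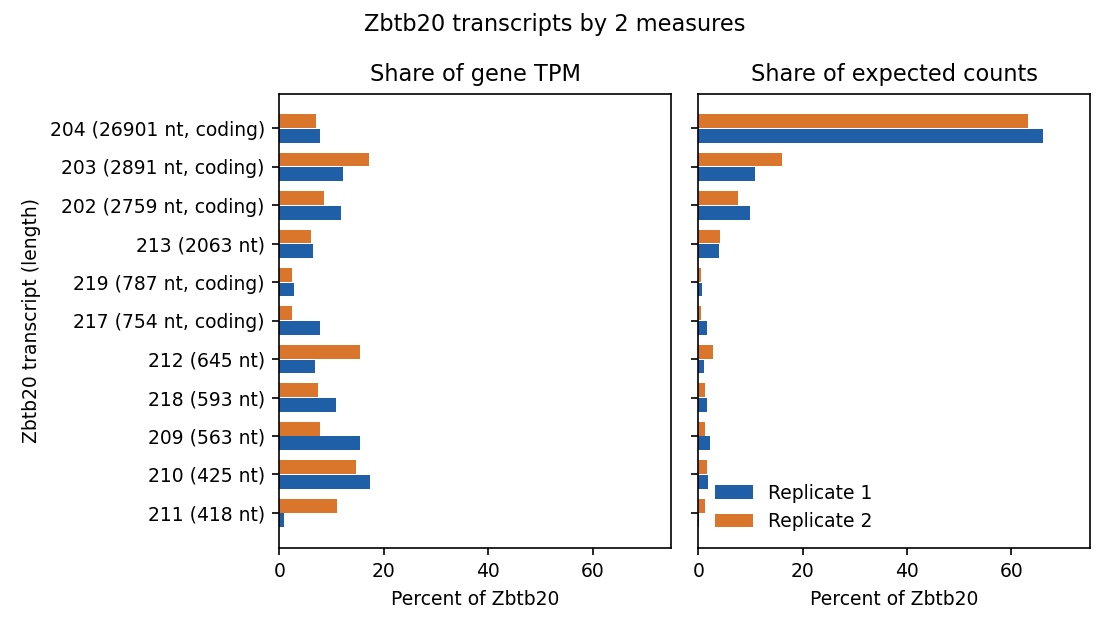
Share of Zbtb20 in each of its 11 transcripts that reach 1% of the gene, in percent of TPM (left) and of expected counts (right), with 1 bar per replicate and transcripts ordered by length in nt. Transcript 204 holds 66.1% and 63.2% of the counts but 7.73% and 6.94% of the TPM, and transcript 210 holds 17.3% and 14.7% of the TPM but 1.79% and 1.59% of the counts.

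The listed family genes had few annotated transcripts. Alb, Afp and Gc had 1 each, so the 100% share of Gc-201, 1812 nt long, follows from the annotation. Afm had 2 coding transcripts. Afm-201, 2038 nt long, took 96.0% and 94.4% of the Afm TPM with 604.69 and 615.96 counts. Afm-202, 2465 nt long with a shorter coding sequence, was at 0.34 and 0.55 TPM on 30.31 and 44.04 counts, with a posterior SD of 6.20 and 6.79 reads. Whether the counting used strand is not stated in the labels or headers. Exons of Afm overlapped Gm42109 on the opposite strand, while those of Zbtb20 overlapped Gm9968 and Mir568, so reads of these overlaps cannot be told apart. Exons of Alb, Afp, Gc and Zhx2 overlapped no exon of another annotated gene. As whole genes, Afp overlapped 1 gene and Zhx2 overlapped 2, all on the opposite strand.

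Of the liver-enriched and NF-I transcription factors, several of which are known to act on the family's promoters and enhancers, 13 of 17 reached 1 TPM in both libraries and 3 were below it in both, with a median of 3.23 ± 0.191 TPM. The highest were the forkhead factor Foxa3 at 24.9 TPM, the nuclear receptor Hnf4a at 12.4 TPM and Nfic, of the NF-I family, at 8.07 TPM. Those below 1 TPM in both were Onecut2 at 0.80 TPM, Foxa1 at 0.635 TPM and Dbp at 0.485 TPM. Zbtb20, at 2.315 TPM, was below the median of this list. Its posterior mean TPM was 3.49, and list medians were not recomputed on that measure.

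Zhx2 was the lowest of the 4 measured ZHX family genes. Zhx1 was at 9.73 and 13.2 TPM, Homez at 2.06 and 2.00 TPM and Zhx3 at 1.87 and 1.82 TPM, each above Zhx2 in both libraries. By deposited TPM, Zbtb20 ranked 21 among the 35 measured genes whose symbol is Zbtb followed by a number alone. Symbols with a letter after the number were outside this list. The list median was 2.19 and 3.26 TPM in replicates 1 and 2, a mean of 2.725 ± 0.757. Zbtb20 itself was at 2.18 and 2.45 TPM. Of these 35 genes, 25 reached 1 TPM in both libraries and 8 were below it in both. The highest on the list were Zbtb45 at 12.2 TPM, Zbtb11 at 10.8 TPM and Zbtb14 at 10.6 TPM. Of the other genes known to be repressed by Zhx2 in liver, 3 were listed. The noncoding RNA H19 was at 368 and 323 TPM and the cell surface proteoglycan gene Gpc3 at 208 and 256 TPM. The lipoprotein lipase gene Lpl was at 44.4 and 49.9 TPM. Thus 3 of 3 reached 1 TPM in both libraries, against 28.1% of all annotated genes and 52.1% of protein-coding ones. Afp was higher than each of the 3 genes, and any action of Zhx2 on them was not tested.

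**Figure D5:**
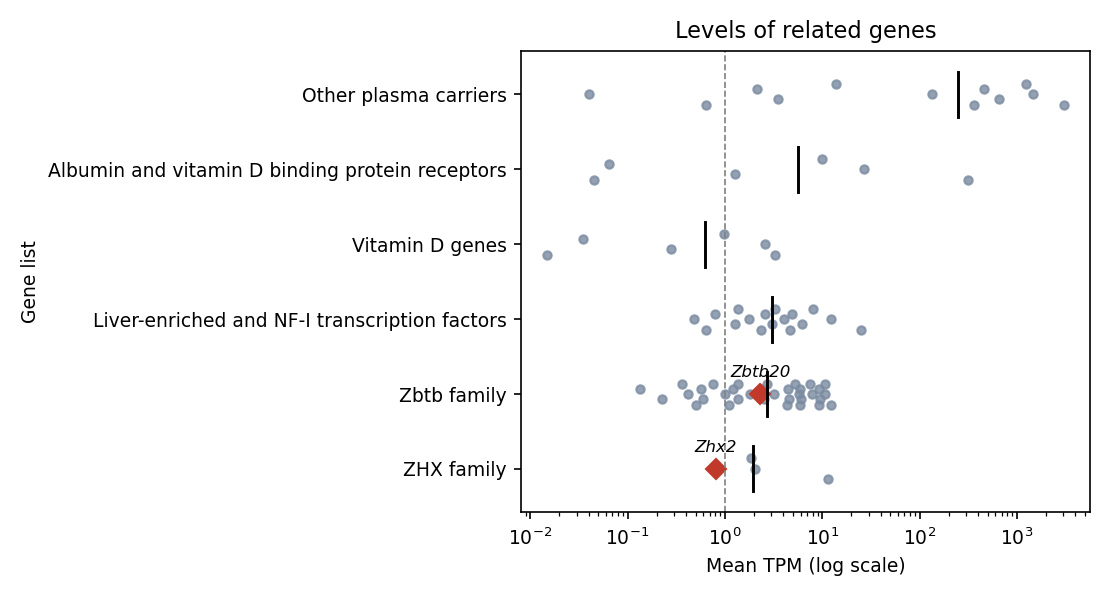
Mean TPM over 2 replicates (log axis) of the genes in 6 related lists, with 1 point per gene, a black line at each list median, a dashed line at 1 TPM and red diamonds for Zhx2 and Zbtb20. Zhx2 is the lowest point of the ZHX family at 0.81 TPM, and Zbtb20 lies at 2.315 TPM. The line of the Zbtb list, the median of the mean TPM values, is at 2.705.

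Other plasma carriers of the liver had means from 0.04 TPM to 3043 TPM, against 9.23 to 6219 TPM in the listed family genes. Of 12, 10 reached 1 TPM in both libraries. The iron carrier transferrin (Trf) was at 3043 ± 15.3 TPM, between Afp and Alb. The retinol carrier gene Rbp4 was at 1478 ± 116 TPM and Serpina6, the glucocorticoid carrier, at 1248 ± 125 TPM, both below Alb in mean, with Rbp4 overlapping Alb between libraries. Fetub, at 0.640 TPM, and the acute-phase carrier gene Orm1, at 0.04 TPM, were below 1 TPM in both. By count ratio 3 of the 11 carriers with enough counts were higher in replicate 2, with a median log2 of -0.13, while the 6 genes had 3 higher and 3 lower with a median of 0.03 (5 higher under total counts and 0 under spike-ins), and all genes had a median of -0.00.

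Genes that handle the cargo of Gc and Afm are given as short chosen lists, too small to compare the vitamins. Of all protein-coding genes, 52.1% reached 1 TPM in both libraries. For vitamin D, 2 of 6 genes reached 1 TPM in both libraries, the retinoid X receptor gene Rxra at 3.24 TPM and the sterol hydroxylase gene Cyp27a1 at 2.60 TPM. Cyp2r1, the main 25-hydroxylase, was at 0.91 and 1.03 TPM. The vitamin D receptor gene Vdr was at 0.20 and 0.36 TPM, and Cyp27b1 and Cyp24a1, which activate and degrade the hormone, were listed at 0 in replicate 1 and at 0.07 and 0.03 TPM in replicate 2. For vitamin E, 4 of 4 genes reached 1 TPM, with the lipoprotein receptor gene Scarb1 at 63.9 TPM, Ttpal at 13.2 TPM, the tocopherol transfer protein gene Ttpa at 6.77 TPM and Sec14l2 at 5.73 TPM. Among the 6 genes listed for receptors that bind albumin or Gc and for their partners, the neonatal Fc receptor chains B2m and Fcgrt were at 317 and 26.7 TPM. The adaptor gene Dab2 was at 9.92 TPM. The endocytic receptor genes Lrp2, at 0.065 TPM, and Cubn, at 0.045 TPM, were below 1 TPM in both libraries, and their partner Amn was at 1.18 and 1.35 TPM, so 4 of 6 reached it.

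The libraries held 39182457 and 37432977 expected counts on annotated genes, and spike-ins took 1.16% and 1.88% of all counts. At that depth, with a limit of 3 counts for a gene listed at 0, counting error leaves at most 0.0417 and 0.0464 TPM for a transcript of 2000 nt. Of the markers of the labelled tissue, 18 of 18 hepatoblast genes were at 1 TPM or more in both libraries, a list that holds Alb and Afp. All 12 erythroid, 9 of 9 mesenchymal, 8 of 8 endothelial and 8 of 9 macrophage markers did so too. So did 5 of 7 visceral endoderm, 4 of 7 cardiac, 2 of 7 neuronal and 1 of 8 B lymphoid markers. The share of all protein-coding genes was 52.1%. Summed cardiac markers were at 40.9 and 97.5 TPM, with 6 of 7 higher in replicate 2 and a median log2 ratio of 1.98. The hepatoblast markers had a median log2 ratio of 0.02, with 10 of 18 higher in replicate 2, beside 0.12 for Afp and 0.07 for Alb. Whether tissue makeup had a part in the replicate ratios of Afp and Alb was not tested. Afp is also known from visceral endoderm. Of the 7 genes of that list, Ttr, also listed here as a hepatoblast marker and as a plasma carrier, was at 362 TPM. Lefty1 was at 5.58, Rhox5 at 2.80, Sox17 at 2.59, Amn at 1.27 and Cubn at 0.045 TPM on average. Cer1 was listed at 0 in both libraries. The part of such cells in the Afp level was not tested.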

How the data were processed

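Total RNA from embryonic liver was sequenced in 2 libraries. The deposited readme names mm10 and GENCODE release M4. The aligner, quantification tool and strand use are not given in the sources consulted. Expected counts are the authors' model-based estimates of reads per gene or transcript, per the file headers. TPM values were normalised by the authors per length and scaled so that genes, spike-ins and transfer RNA entries together have the same sum in each library. FPKM columns and the percent of a gene in each transcript were also deposited. FPKM gave no printed value, and percents were recomputed from TPM or counts.

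Symbols and coordinates came from GENCODE M21 (GRCm38) by gene ID, and start regions from RefSeq (GRCm38.p6), which held 5 of the 6 genes. Ratios are log2 of expected counts plus 0.5 for genes averaging 10 or more counts, scaled by TMM (edgeR 4.0.16, R 4.3.3; no model was fitted), with exact 95% binomial intervals. The files give no molecular identifiers, so these intervals and the limit of 3 counts hold counting error alone. In simulated counts of 16028 genes for these 2 libraries, with 50 genes at each size, true log2 changes of -1, -0.5, 0.5 and 1 were recovered as medians of -1.02, -0.49, 0.50 and 1.00. Other steps used Python 3.11.15. Alternatives covered the scaling (DESeq2 1.42.0 size factors, total counts, spike-ins), low-value filters, globins, posterior means, counts and each replicate alone.

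The rule for the 6 genes reads no measured value, but they and the 17 lists were proposed with earlier results of these data known. Named genes were the 6 genes, their transcripts of at least 1% of the gene, protein-coding genes within 500 kb of the family, those adjacent in level, and the highest and low members of the lists. Of the Zbtb list, which takes symbols of Zbtb and a number alone, only the 3 highest were named. Cell type lists are given mainly as counts. Some list members were not reported here by name.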

Additional observations from a re-analysis of the deposited data

How the results depend on the processing

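Of 25 recomputed levels, shares and ratios between genes, 10 stayed within the SD of the 2 replicates and 15 moved beyond it. Of 42 recomputed replicate ratios, 33 stayed within their counting interval, 7 moved beyond it and 2 reversed. Another 28 recomputed values, such as those of a single replicate, could not leave the spread by construction and say nothing of stability. Of 6 recomputed counts of genes, 1 moved by more than 1.5 times. With TPM rescaled without globins, the levels were 9492 for Afp, 2535 for Alb, 139.5 for Gc, 14.1 for Afm, 3.54 for Zbtb20 and 1.23 for Zhx2, and the family share was 1.22%, a change that follows from the smaller total. By expected counts the family share was 1.47%. The posterior mean TPM was 3.49 for Zbtb20 and 1.17 for Zhx2. On protein-coding transcripts alone, a choice made after seeing the data, Zbtb20 was at 0.925 TPM, its log2 ratio over Zhx2 was 0.65 and its leading transcript held 37.3%. The TPM-leading Zbtb20 transcript held 1.69% of the counts and 12.1% of the posterior mean TPM. Under total counts the interval of the replicate ratio left out an equal level for 3 of the 6 genes, and under no other scaling but spike-ins did that count differ from 2. Under spike-in scaling the interval left out an equal level for 6 of the 6 genes, and the log2 ratios of Afp and Alb reversed to -0.52 and -0.57. Spike-ins took a larger share of counts in replicate 2, and the cause was not tested. The order of the 6 genes by TPM rests on 2 libraries of 1 group, and the depth of 92 and 91 counts limits Zhx2.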
